A study of Drosophila melanogaster with 2 samples.

Results

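The genes described here are 10 genes of the Dpp and activin signalling pathways, set against 13945 protein-coding genes in all: dpp, gbb, sog, tkv, put, wit, babo, Mad, shn and brk. They were chosen by name. Binding of Sob at each was read from peaks whose summit, the position of highest enrichment, lay in the gene body or within 5 kb of it. The assay was ChIP-seq, in which sheared chromatin is precipitated with an antibody and its DNA sequenced. Intact embryos of the Drosophila melanogaster strain sob-GFP, 0 to 24 h old, were used, which carry an insertion targeting sob and make a Sob-eGFP fusion. Sob is one of the zinc-finger transcription factors related to Odd-skipped. An anti-GFP antibody was used on chromatin that had been sheared by sonication, a control experiment is named in the labels, and sex was not recorded. All embryos were of this strain: there was 1 group with 2 biological replicates, replicate 1 and replicate 2, and no other genotype, treatment or stage, so no difference between conditions could be tested. Whole embryos mix all cell types, so the cells that carry a peak are not known.

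Dpp and Gbb are secreted ligands of the BMP branch of the TGF-beta family. They bind receptors that join a type I kinase, such as Tkv, with a type II kinase, such as Put or Wit, and these phosphorylate the Smad protein Mad, which enters the nucleus. The activin branch uses the type I receptor Babo with the same type II receptors. In the embryo the pathway patterns the dorsal side, where Sog holds the ligand away from its receptors, and Mad acts with the zinc-finger protein Shn to silence brk, whose product represses Dpp target genes.

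The sequences below show the DNA around the strongest summits of these genes. Shown is the plus strand of the dm6 assembly, 50 bases on either side of the summit, for the strongest peak of 6 of the 10 genes, read from RefSeq's copy of release 6. Capitals mark the 21 bases centred on the summit. For Mad, internal promoter means only within 1000 bp of the internal transcription start site. The Mad summit lies in an intron at −650 bp, upstream of that site.
dpp intron (chr2L:2433560-2433660): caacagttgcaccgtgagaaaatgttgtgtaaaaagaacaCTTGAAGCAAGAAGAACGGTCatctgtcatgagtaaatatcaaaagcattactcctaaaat
sog intron (chrX:15623034-15623134): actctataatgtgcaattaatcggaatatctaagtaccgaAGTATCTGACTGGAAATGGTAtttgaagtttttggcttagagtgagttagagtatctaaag
tkv intron (chr2L:5222542-5222642): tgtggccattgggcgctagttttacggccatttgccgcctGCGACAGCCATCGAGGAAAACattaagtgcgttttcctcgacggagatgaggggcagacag
wit intron (chr3L:4070535-4070635): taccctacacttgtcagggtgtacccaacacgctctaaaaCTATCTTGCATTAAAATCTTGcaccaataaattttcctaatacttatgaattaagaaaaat
Mad intron and internal promoter (chr2L:3153353-3153453): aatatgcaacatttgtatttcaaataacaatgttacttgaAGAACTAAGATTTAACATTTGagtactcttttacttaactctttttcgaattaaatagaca
brk upstream (chrX:7307024-7307124): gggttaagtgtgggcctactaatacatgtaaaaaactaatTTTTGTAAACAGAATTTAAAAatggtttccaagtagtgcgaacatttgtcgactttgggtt
G and C made up 23.8% of this window for Mad, 32.7% for wit, 33.7% for sog and for brk, 35.6% for dpp and 55.4% for tkv. At the strongest summits of the other 4 genes the share was 36.6% for gbb, 45.5% for put, 46.5% for shn and 52.5% for babo. Over all summits of the main list it was 39.4% ± 11.1 (SD).

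Each of the 10 genes had a summit in its body or within 5 kb of it, against 61% of protein-coding genes at large. The 10 windows held 46 summits of the main list, which is the larger of the thresholded lists made from both replicates and has 7002 peaks. The median was 3.5 summits for these genes and 1 for all protein-coding genes. Gene length bears on this count: the median gene body was 12023 bp for the 10 genes and 2166 bp for all protein-coding genes. Of genes shorter than 5 kb, 56.2% had such a summit, against 75% of those of 5 to 20 kb and 76.1% of those of 20 kb or longer. gbb and brk are in the shortest of these classes, put, wit, babo and Mad in the middle one, and dpp, tkv, shn and sog in the longest. Within these classes, as many summits as at shn or more were found at 0.691% of genes, as at tkv at 11.1%, as at gbb at 12.7%, as at wit or babo at 15.4% and as at sog at 16.1%. For dpp (44.4%), Mad (49.4%), brk (56.2%) and put (75%) the count of summits was common for the length class.

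**Figure D1:**
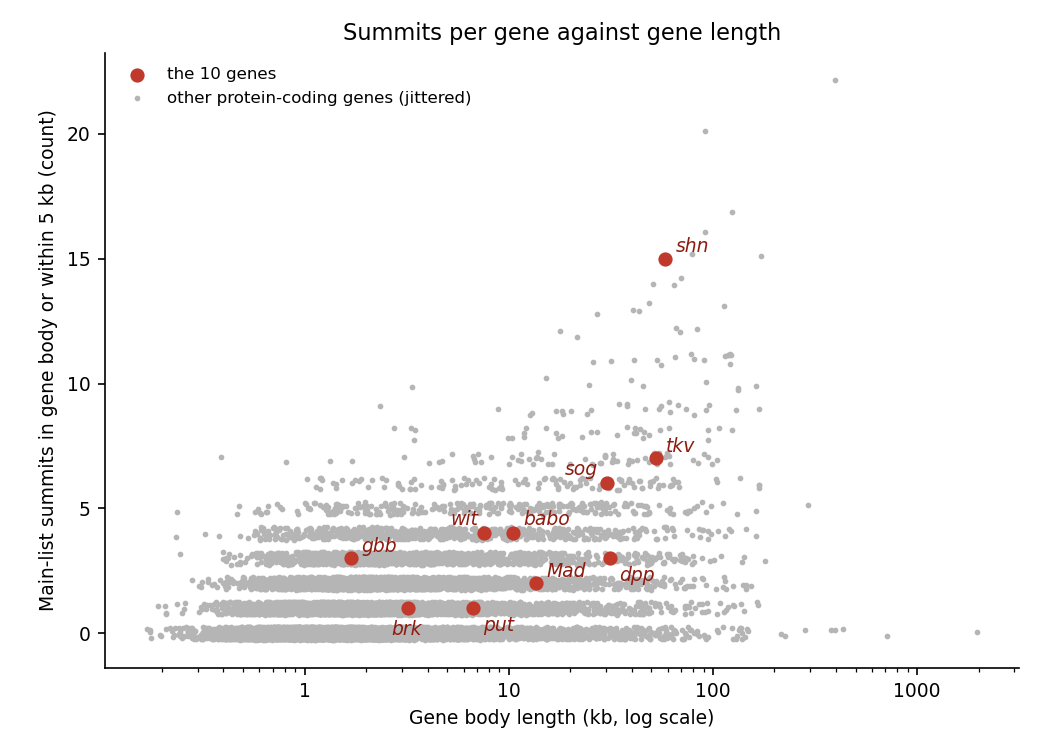
Number of main-list summits in the gene body or within 5 kb (vertical axis) against gene body length in kb (horizontal log axis); red points are the 10 genes and grey points the other protein-coding genes, jittered vertically. shn, with 15 summits, lies near the top of the plot, while put and brk, with 1 summit each, lie among most genes of their length.

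All 10 also had a summit near a transcription start site (TSS) of their own, no more than 1000 bp away, against 32.9% of all protein-coding genes. The genes were listed with earlier results of these data known, so this count is a description with no test. The 32.9% was not matched for gene length or number of TSSs. At dpp, gbb, put and babo the only summit near an own TSS was also within 1000 bp of another gene's TSS. The 32.9% counts such shared summits too. The 10 genes have 22 annotated TSSs, of which 13 had a summit within 1000 bp. The share of all annotated TSSs with such a summit was not counted, so the 13 has no background. The count of 10 genes was lower under several of the alternatives given at the end. The signal of the strongest peak near an own TSS was 436.3 at Mad, 422.7 at shn, 239.7 at wit, 171.9 at babo, 146.1 at put, 139.8 at brk, 131.2 at sog, 106.2 at tkv, 104.4 at dpp and 100.7 at gbb. Signals are the authors' values per peak. They carry no stated scale, and a peak has no error of its own. In the whole main list the median signal was 133.4, with quartiles of 98.6 and 214.4. Mad, shn and wit were thus above the upper quartile, babo, put and brk between the median and that quartile, and sog, tkv, dpp and gbb between the lower quartile and the median.

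Over the 46 peaks the median signal was 122.9, below the 133.4 of the whole main list. This order was not the same in every list, and the values for the other lists are given at the end. Of the 46, 20 were above the list's median, 12 above its upper quartile and 11 below its lower one. The 46 peaks formed 42 regions once overlapping peaks were joined. The lowest signals, 8.7 in shn, 22.3 in tkv and 49.2 at babo, belonged to peaks that overlapped a neighbour of higher signal. Of the 46 peaks, 13 were narrower than the 380 bp that is the median width of the list. All of these had a signal of at least 139.8, while no peak of 380 bp in these windows was above 230.5. Of the 5496 peaks of 380 bp in the list, 5493 had the summit at their middle.

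**Figure D2:**
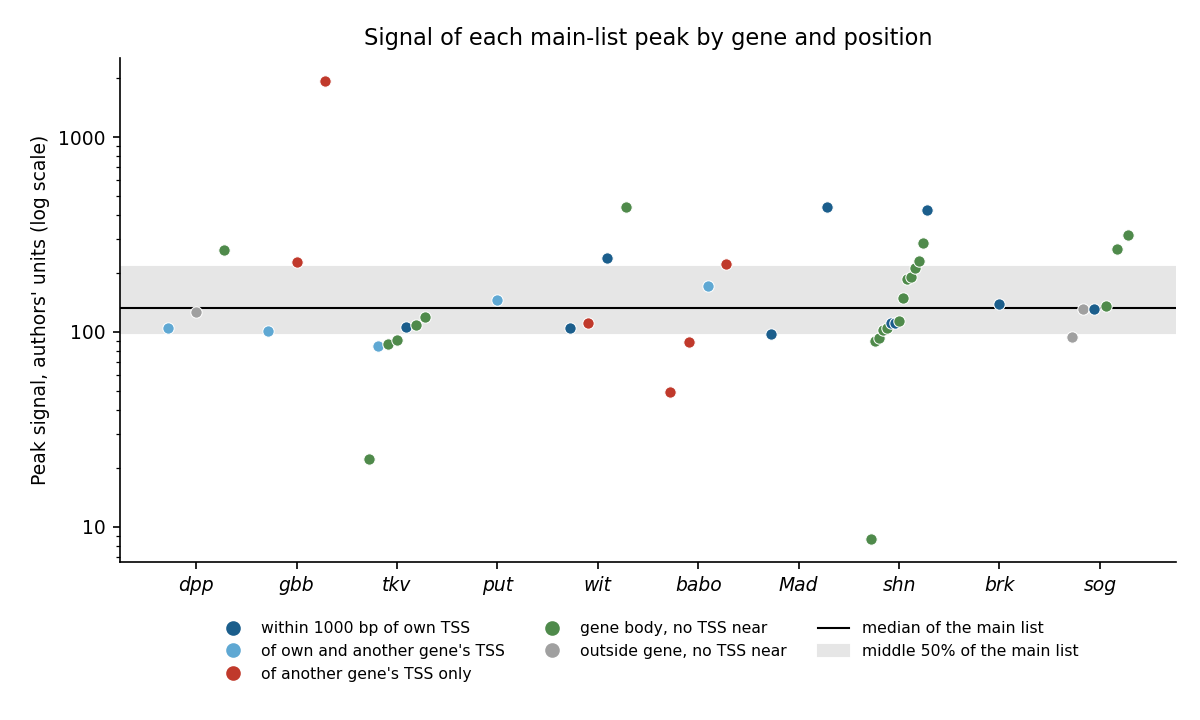
Signal of each of the 46 main-list peaks in the authors' units (vertical log axis) by gene; colours give the position of the summit, the line is the median of the whole main list and the grey band its middle 50%. The highest point, 1950.7 in the gbb window, lies at a TSS of other genes, and the next highest are at Mad, wit and shn.

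By position, 15 of the 46 summits were within 1000 bp of a TSS of the named gene, and for 5 of these a TSS of another gene was as near as that too. A further 6 were within 1000 bp of a TSS of other genes alone. Of the remaining 25, 22 were in the body of the named gene and 3 outside it. The median signal was 121.3 for the 10 summits at an own TSS alone, 127.4 for the 22 in the body and 166.9 for the 6 at other genes' TSSs. These medians lay close together beside the range within each kind, which for the 22 in the body was 8.7 to 435.5. Counting any gene's TSS, 45.7% of the summits in these windows were near one, against 63.0% in the whole list. Introns of the named gene held 28 of the 46 summits, 5′ UTRs 4 and a coding exon 1, while 10 were upstream and 3 downstream of the gene. Summits in a gene body more than 1000 bp from any TSS were found in 5 of the 10 genes, dpp, tkv, wit, shn and sog, against 7.26% of all protein-coding genes. Among genes of 20 kb or longer, which include 4 of these 5, the share was 49.6%.

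**Figure D3:**
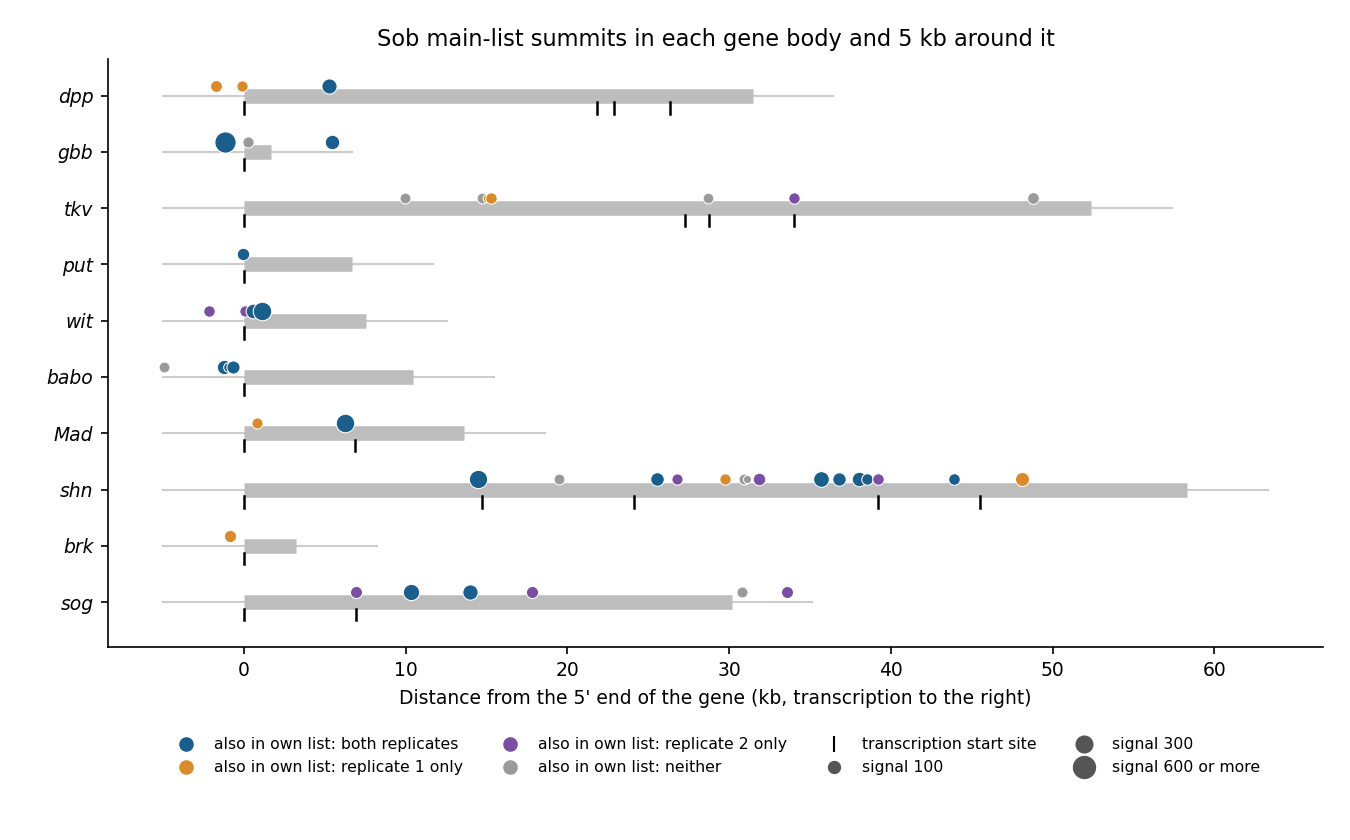
Position of the summits along each gene in kb from its 5′ end, with transcription to the right; grey bars are gene bodies, thin lines the 5 kb on either side, black ticks TSSs, and points are summits sized by signal and coloured by whether a peak of each replicate's own list overlaps. In dpp the summits lie at the upstream end of the gene, and in shn they spread over much of the body.

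The ligand gene dpp (FBgn0000490; 2L, 2428372 to 2459823, plus strand) had 3 summits, all within 5238 bp of its most upstream TSS. The strongest was in an intron, 5238 bp downstream of that TSS, and had 262.5, place 1284 by signal in the main list (2433540 to 2433712). It was found in both replicates' own lists, with a signal of 182.3 at place 839 of 4490 in replicate 1 and 90.5 at place 2351 of 4626 in replicate 2. The others were at −1713 bp (126.4) and at −128 bp (104.4), and both met a peak in replicate 1's own list only, at 73.6 and 52.3. The summit at −128 bp is also within 1000 bp of the TSS of a non-coding gene, lncRNA:CR44912. dpp has 4 annotated TSSs, and no main-list summit lay within 1000 bp of the other 3, which start 21821, 22857 and 26365 bp into the gene. In replicate 2's own list there was a peak at −96 bp from the last of these (signal 70.1, place 3558) that met no peak of the main list.

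The gene of the second BMP ligand, gbb (FBgn0024234; 2R, 23851562 to 23853247, plus strand), is short and lies among close neighbours. Its window held the strongest of the 46 peaks, 1950.7 at place 18 (23850226 to 23850577). That summit was at −1156 bp from the gbb TSS and within 1000 bp of TSSs of eIF6, a factor in ribosome biogenesis, ytr and asRNA:CR45928. Its signal was 1129.1 in replicate 1's own list and 838 in replicate 2's, at places 15 and 18. The summit nearest to the gbb TSS was 220 bp downstream in the coding exon, had a signal of 100.7 at place 5112 and met no peak in either replicate's own list. A TSS of ytr is within 1000 bp of it too. The remaining summit, at 5456 bp from the TSS and with a signal of 229.8, was near the TSS of Pym and was in both own lists. The signals of gbb above the list's upper quartile were therefore at promoters of other genes.

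sog (FBgn0003463; X, 15603283 to 15633434, minus strand) encodes the secreted antagonist of Dpp. It had 6 summits, of which 3 were in its body away from any TSS. The stronger ones were 3456 bp downstream of the internal TSS, with a signal of 315.2 at place 937, and 7060 bp downstream, with 266.7 at place 1253. Both were in the own lists of replicate 1 (173.6 and 149) and replicate 2 (151.5 and 104.6). The summit at 10924 bp had a signal of 135.3, and the promoter summit, 42 bp downstream of the internal TSS, had 131.2. These and the one beyond the 3′ end at 131.1 met a peak in replicate 2's own list only, while the weakest, at 94.4, met one in neither. The upstream TSS of sog had no summit within 1000 bp.

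tkv (FBgn0003716; 2L, 5219000 to 5271384, minus strand) encodes the type I receptor for Dpp. It had 7 summits, but none with a signal above the median of the main list: they ran from 22.3 to 119.5, with a median of 91. No peak of tkv was in both replicates' own lists, and 4 of the 7 were in neither. The strongest, in the intron 14770 bp downstream of the nearest TSS (119.5, place 4056), was in neither. Of the 4 annotated TSSs, 2 had a summit within 1000 bp: 1 bp from the most downstream TSS at a signal of 106.2, and −92 bp from the next one upstream at 84.3. The summit at −92 bp also lies by the TSS of the gene CR14033. An intronic group of 3 overlapping peaks, with summits 14724 to 15275 bp from the 5′ end of the gene, had signals of 86.9, 22.3 and 108.2. In the conservative list, a stricter list from both replicates, tkv kept 1 summit of its 7.

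The type II receptor gene put (FBgn0003169; 3R, 14619030 to 14625703, minus strand) had 1 summit, at −43 bp from its only TSS. Negative distances are upstream. Its signal was 146.1 at place 3069, with 55.5 in replicate 1's own list and 70.2 in replicate 2's. The promoter is shared with His4r, a replacement histone H4 gene, whose TSS is also within 1000 bp.

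wit (FBgn0024179; 3L, 4064152 to 4071717, minus strand), the type II receptor gene that acts in motor neurons, had 4 summits around its 5′ end. Signal was higher inside the gene than at the TSS itself. The summit at 1132 bp had 435.5 at place 520 and the summit at 564 bp had 239.7 at place 1484, both in the intron. The summit at 32 bp had 104.8 at place 4822. The intronic peaks were in both own lists, at 193.1 and 144.7 in replicate 1 and 248.7 and 117.6 in replicate 2. The peak at the TSS (65.4) and one at −2160 bp (79.4 in that list, 110.7 in the main list), by the TSS of the metabolic enzyme gene Faa, were in the own list of replicate 2 but not in that of replicate 1.

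The activin type I receptor gene babo (FBgn0011300; 2R, 8952339 to 8962796, plus strand) had 4 summits, none of them inside the gene. The one nearest to its TSS, at −687 bp, had a signal of 171.9 at place 2454. Next to it were summits at −1023 bp (49.2) and −1226 bp (223.1). All 3 were within 1000 bp of TSSs of CG33199, CG8229 and Tom7, a gene of the mitochondrial import machinery, so they cannot be assigned to babo rather than to these genes. They were in both replicates' own lists, where the 2 peaks they met had 93.1 and 106.5 in replicate 1 and 90.9 and 128.4 in replicate 2. The summit at −4940 bp had 88.9, was by the TSS of CG8230 and was in neither own list.

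Mad (FBgn0011648; 2L, 3146056 to 3159643, minus strand), the gene of the Smad that carries the BMP signal, had the highest signal among the peaks near an own TSS. This summit was in an intron at −650 bp from the internal TSS, with 436.3 at place 517 (3153289 to 3153521), and no other gene's TSS was within 1000 bp of it. It was in both own lists, at 296.2 and place 340 in replicate 1 and at 149.4 and place 985 in replicate 2. The upstream TSS had a weaker summit 785 bp downstream, with 98.2 at place 5277 in the main list and 48.7 at place 4207 in replicate 1's own list, and none in replicate 2's.

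shn (FBgn0003396; 2R, 11159086 to 11217394, plus strand), which encodes the zinc-finger partner of Mad, had 15 summits, the most of the 10 genes. All 15 lay inside the gene, 14 in introns and 1 in a 5′ UTR. Only 4 protein-coding genes had more, kirre with 22, bun with 20, CG1677 with 17 and CG32264 with 16, and pum and sbb had as many. The bodies of the 4, of 394149, 91072, 124709 and 91634 bp, are longer than the 58309 bp of shn. Per 10 kb of window, shn had 2.20 summits, at place 15 of the 1013 protein-coding genes of 20 kb or longer. In the same class sog was at place 78 with 1.49, tkv at place 166 with 1.12 and dpp at place 318 with 0.72.

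The strongest peak of shn, with 422.7 at place 555, was in an intron at −264 bp from the second of its 5 TSSs. It was in both own lists, with 85.5 at place 2520 of 4490 in replicate 1 and 334.6 at place 193 of 4626 in replicate 2. A run of summits lay between 35707 and 39220 bp from the 5′ end, around the fourth TSS at 39190 bp. It held peaks of 287, 186.1, 230.5 and 110.7, which were all in both own lists, and one of 111.5 at 30 bp from that TSS, which was in replicate 2's only. Farther downstream were peaks of 113.3 and 211.9. In all, 7 of the 15 peaks of shn were in both own lists, 2 in replicate 1's only, 3 in replicate 2's only and 3 in neither. The first TSS of shn had no summit within 1000 bp, the nearest being 14453 bp away.

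brk (FBgn0024250; X, 7307939 to 7311132, plus strand), the gene of the repressor of Dpp targets, had 1 summit at −865 bp from its TSS. Its signal was 139.8 at place 3272 (7306987 to 7307159). The replicates differed here. In replicate 1's own list the peak had 129.0 at place 1447. In replicate 2's own list no peak met it, and the strongest overlapping peak of that replicate's longer ranked list had 11.3 at place 69707 of 97987. Replicate 2's own list held another peak, at −1235 bp from the TSS, with 51.9 at place 4330. The brk summit lies within the bodies of the longer gene CG1677 and of lncRNA:CR44357. brk was the gene with no summit in the conservative list.

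**Figure D4:**
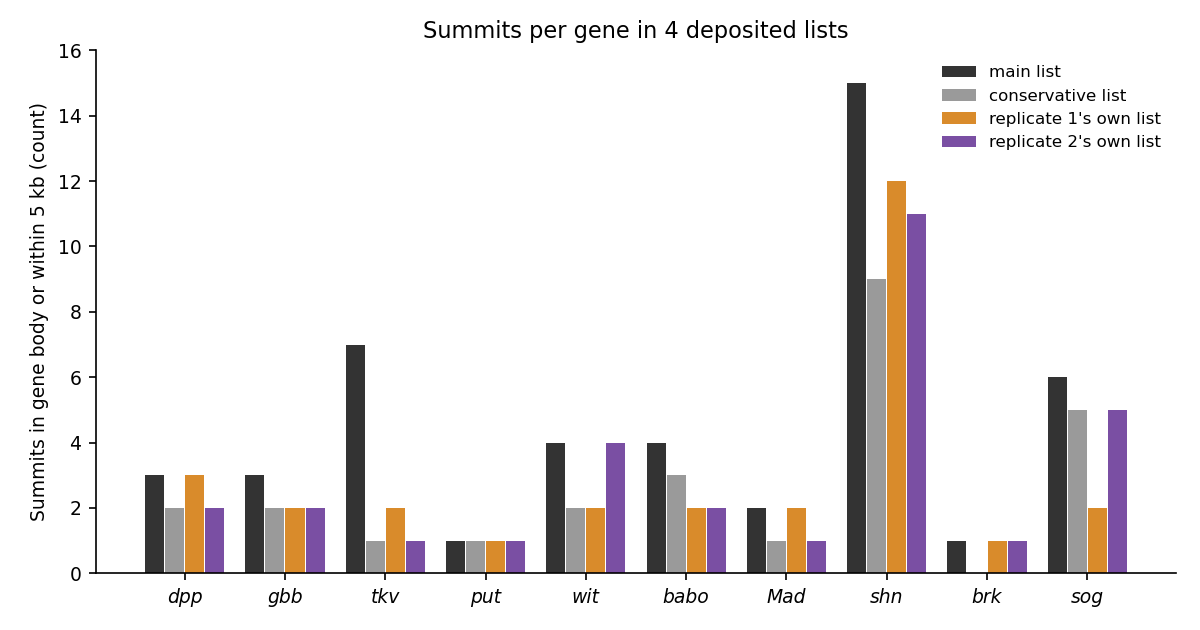
Number of summits in the gene body or within 5 kb (vertical axis) per gene in the main list, the conservative list and the own list of each replicate. shn leads in every list, tkv had 7 summits in the main list but 1 or 2 in the others, and sog had 2 in replicate 1's own list and 5 in replicate 2's.

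Every one of the 10 genes had a summit in its window in each replicate's own list, against 50.1% of protein-coding genes in replicate 1's and 49.6% in replicate 2's. In the conservative list 9 of the 10 did, against 52.4%. In the own lists, gbb counted only through summits near TSSs of other genes. For tkv and brk the peaks of replicate 1 and replicate 2 did not overlap each other. Of the 46 main-list peaks, 19 overlapped a peak in the own lists of both replicates (41.3%), close to the 43.4% of the whole main list. A further 8 met a peak of replicate 1 alone, 9 a peak of replicate 2 alone and 10 neither. These shares were 17.4%, 19.6% and 21.7%, against 16.8%, 18.2% and 21.7% in the whole main list. The 19 shared peaks had a median signal of 230.5 and the other 27 one of 104.8, against 231.6 and 104.0 in the whole list. The conservative list held 25 of the 46 (54.3%), against 68.4% of all main-list peaks. Replicate 1 and replicate 2 each gave a like number of summits in these windows, 29 and 30, but not always at the same genes: sog had 2 and 5, wit 2 and 4, and dpp 3 and 2.

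Together the 10 windows covered 315.5 kb and held 1.46 summits per 10 kb. The windows of all protein-coding genes, summed in the same way, held 0.785, those of genes of 20 kb or longer 0.471, and the 6 main chromosome arms 0.523. The density in these windows was 2.79 times that of the arms in the main list, 2.24 times in the conservative list, and 2.75 times in the own list of either replicate.

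Few of the 46 summits held a motif of those searched. Each of 8 motifs was looked for within 50 bp of a summit on both strands. GAGAG, the core bound by GAGA factor, was at 7 of the 46 summits (15.2%), against 12.4% of all 7001 summits on the main arms. These were at gbb, tkv, babo, Mad, shn (at 2 summits) and sog. GGTCACAC, a core promoter element, was at 1 summit, upstream of babo (2.17%, against 1.59%), and GGCGCT, one of the sites of the Brinker and Mad type, at 1, the strongest of tkv (2.17%, against 3.69%). The odd-skipped family core CAGTAGC was at 0 of 46, against 0.743% of all summits. TATCGATA (2.51% of all summits), CAGGTAG (0.443%), GGCGCC (2.50%) and GGCGTC (2.10%) were also at 0 of 46. A match, or none, is a matter of these letters in these windows. G and C made up 40.4% ± 10.3 of the bases within 50 bp (SD over 46 summits), against 39.4% ± 11.1 over 7001, and ran from 22.8% at shn to 63.4%, also at shn.

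The Mad summit near the upstream TSS is shown for its GAGAG matches, in capitals, which overlap each other.
Mad intron near the upstream TSS (chr2L:3158808-3158908): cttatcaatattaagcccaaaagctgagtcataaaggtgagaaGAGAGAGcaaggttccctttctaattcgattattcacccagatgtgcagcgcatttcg
Their centres lie at −5 and −3 bp from the summit on the plus strand. Outside Mad, the GAGAG match nearest to a summit was 5 bp from it, near Pym in the gbb window, and the rest were 22 to 48 bp away.

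Other genes of the pathway also had summits, and several of the strongest lay by promoters of neighbours. In a list of 25 further components, 19 (76%) had a summit in their window, against 61% of all protein-coding genes, and 7 (28%) had a summit within 1000 bp of an own TSS, against 32.9%. Their median body was 6363 bp, but lengths were mixed, from 523 bp for srw to 93010 bp for Snoo. Of all genes under 5 kb 56.2% had a summit in the window, of those of 5 to 20 kb 75%, and of longer ones 76.1%. The 76% is near the share of the longer classes, but no share matched to this mix was computed. The highest signals were at Med (1466.5), cv (584.7), Snoo (410.1), dlp (398.2) and magu (343.6). Those at Med, the gene of the shared Smad, and at cv lay by TSSs of neighbours, CG1792 and Mnat9 for Med and lncRNA:CR42794 for cv. Snoo, a Ski family corepressor gene of 93010 bp, had 10 summits and its strongest lay 51461 bp from the nearest own TSS. dlp, which encodes a glypican, had 6, and magu, which encodes a secreted feedback regulator also named Pentagone, had 5 with the strongest at −296 bp. The ligand genes scw, mav and myo, and tsg, Fs and Smurf, had no summit in the main list. In the replicates' own lists, myo had 1 in replicate 2's and Fs had 1 in replicate 1's. The ligand genes Actbeta and daw had 1 main-list summit each, at 91.2 and 95.1. The Actbeta peak was in neither own list and the daw peak in replicate 2's only. The inhibitory Smad gene Dad had 4, with the strongest at 276.2.

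Of 18 genes listed as Dpp targets, 13 (72.2%) had a summit, against 61% of all protein-coding genes, and 5 (27.8%) had one near an own TSS, against 32.9%. Their median body was 6023 bp, again with mixed lengths, from 1331 bp for zen to 72792 bp for bi. The 72.2% is near the 75% of all genes of 5 to 20 kb, while the share under 5 kb was 56.2%. No share matched to this mix was computed here either. The highest signals were at bam (1084.2), by TSSs of RpS27 and Nup37, at Ance (955.1), by the TSS of Smg5, and at tin (559.6), at −196 bp from its own TSS. Next were tup (360.1), by the TSS of CG10602, and ush (354.8), which had 14 summits in a body of 64341 bp. The dorsal and wing target genes bi, vg, pnr and salm had 1 summit each, at 339.0, 93.4, 132.1 and 143.5. That of vg was at −3984 bp from its nearest own TSS, by TSSs of AspRS and Nmda1. The bi peak was in both replicates' own lists and the vg peak in replicate 1's only. The salm peak was in replicate 2's only and the pnr peak in neither. zen, salr, eyg, lbe and bap had none. Neighbouring genes share summits in these lists, namely tld with tok and Doc2 with Doc3.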

How the data were processed

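Peak lists on dm6 were analysed. According to the deposited file lists, each replicate has a thresholded and a ranked list of its own, and further lists draw on both replicates. A peak's signal is the authors' own deposited value, on a scale they do not state, and the deposited score runs up to 1000, with 830 the lowest in the main list. Neither aligner nor peak caller is named in the sources used here. The files hold no read counts, so depth is unknown. No use was made of 8 signal columns with no sample name.

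Genes and TSSs came from Ensembl release 115, and RefSeq gave the same bounds for the 10 genes. Peaks on the 6 main arms were used, and shared peaks had to overlap by at least 1 bp. Ranks are by signal within a list, and signals from different lists are given side by side, with no fold or test between them. Counting by window was tested on simulated data. The members and lists were chosen with earlier results of these data known. The rule was to name all 10 genes, genes with a TSS by one of their summits, up to 5 genes of each further list by highest signal, and up to 5 genes with the most summits. Other genes named (pum, sbb, the genes with no summit, tld, tok, Doc2, Doc3, Actbeta, daw, Dad, bi, vg, pnr, salm) were chosen after their values were seen. No test was made, since there is 1 group. Tables were made with Python 3.11.15 and pandas 2.3.3. Alternatives were the other lists, other margins and TSS distances, the stronger peaks alone and other overlaps. Sequences on arm 2R, or with over 30 bases of UTR, were left out.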

Additional observations from a re-analysis of the deposited data

How the results depend on the processing

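The 46 summits became 26 with the conservative list and 20 with the stronger 50% of peaks. From a single replicate's own list they were 29 to 30. Their density of 1.46 per 10 kb became 0.824 with the conservative list and 0.919 to 0.951 with a single replicate, and these lists are shorter than the main list. The count of genes with a summit within 1000 bp of an own TSS, 10, became 6 with the stronger 50% of peaks, with which tkv lost every summit. It was 7 to 8 with a single replicate and 7 with the conservative list. With the shorter TSS distance it was 7, and with the 5′ end of the gene body as the only TSS it was also 7. The shorter distance left out Mad, babo and brk, whose nearest summits were at −650, −687 and −865 bp. The signals of 436.3 at Mad and 239.7 at wit, the latter at 564 bp, therefore count as near an own TSS only by the 1000 bp limit. The 5′ end alone left out tkv, shn and sog. The count stayed at 10 with the longer TSS distance and with any overlap of the peak. Apart from the 6, these counts were within 1.5 times the main count. The share of all protein-coding genes, 32.9%, was counted for the main list at 1000 bp only. The counts under these alternatives therefore have no background of their own. The median signal of 122.9 became 230.1 with the stronger 50% of peaks and 113.3 with gene bodies alone. Other lists hold signals of their own, whose scale is not stated. For the summits in these windows the median was 201.2 in the conservative list, above the 168.8 of that whole list. In replicate 1's own list it was 100.7, above the 93.5 of the whole list. In replicate 2's own list it was 87.7, below the 91.3 of the whole list. The 19 peaks shared with both replicates became 12 when 50% of both peaks had to overlap, and 46 with the ranked lists, which hold 91315 and 97987 peaks.

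The count of genes with a summit in their window was 7 with gene bodies alone, 9 with the conservative list and with the stronger 50% of peaks, and 10 under the other alternatives run. No paired analysis was possible because there is 1 group. Margins of 2 and 10 kb and any overlap of the peak kept the counts of summits (42 to 60) and of genes within 1.5 times their values. Leaving out 1000 bp around other genes' TSSs gave a density of 1.39 per 10 kb. The densities of all gene windows and of the arms were not masked in this way, so the 1.39 has no like background. Of 80 counts for single genes, 28 moved by more than 1.5 times, 24 of them lower. These alternatives per gene, and those of the further lists (15 to 16 of 25 and 11 of 18 genes), were added after seeing the data. The unknown depth limits what a missing peak in 1 replicate shows.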
